A study of Mus musculus with 12 samples.

Results

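Collagen genes and the matrix and transport genes of the meninges were followed mouse by mouse through the dorsal hippocampus. Members were genes whose symbol has the form of a collagen alpha chain, such as Col1a1, together with Dcn, Lum, Ogn, Fn1, Igf2, Slc6a13 and Slc13a4, taken where the mean raw count over 12 libraries was 10 or more. The rule found 44 of the 24985 genes counted, namely 37 collagen chains and the 7 genes listed by name, out of 51 candidates. Below the minimum were Col10a1, Col17a1, Col24a1, Col28a1, Col6a6, Col9a1 and Col4a3, the last with a mean count of 9.0. The members nearest the minimum were Col4a4, with a mean count of 12.1, and Col14a1, with 13.3. All 44 also passed the filter on low counts that left 14742 genes for testing.

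The 12 mice were C57Bl6/J animals labelled male, injected on the right side into the dorsal hippocampus at 6 months of age and then kept for 6 months on 1 of 2 diets. PBS control mice received PBS and control chow, PBS acetate mice received PBS and chow with 5% Na-acetate, tau control mice received 1 µg AD tau and control chow, and tau acetate mice received 1 µg AD tau and the acetate chow, with 3 mice in each group. AD tau is the insoluble tau fraction of frontal cortex from people with Alzheimer's disease, and its control was the buffer PBS rather than an extract of unaffected brain. The tissue was a whole piece of right dorsal hippocampus, taken a day after a memory test, and whether pia, choroid plexus or ventricle wall were trimmed from it is not given in the sources used here.

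Collagens are trimers of alpha chains, and their classes build different structures. Types I, III and V form the fibrils of connective tissue, type IV forms the network of basement membranes around vessels and under the pia, type VI forms beaded filaments, and transmembrane collagens sit in the cell surface. In the brain, fibrillar collagens and the proteoglycans decorin and lumican come mostly from fibroblasts of the meninges and around vessels, type IV collagen comes from endothelial and mural cells, and several minor collagens are made by neurons.

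Between 12983233 and 20218340 reads per mouse fell on genes, with TMM scaling factors between 0.99 and 1.01. Xist, transcribed from the inactive X chromosome of female cells, had 13583 to 25991 counts in each library, whereas each had 0 counts of 4 Y-linked genes, so all 12 libraries went against the label male. Markers of dentate granule cells summed to 377 to 622 CPM per mouse and those of CA1 to 452 to 946 CPM, where CPM is the usual normalised read count, scaled to library size with TMM. The 14 markers of meningeal fibroblasts, which share no gene with the members, summed to 111 to 123 CPM in PBS control, 133 to 150 in PBS acetate, 125 to 140 in tau control and 131 to 148 in tau acetate mice. The PBS control mice thus lay below all 9 other mice on that sum. Pdgfra and Cemip, which other brain cells also express, made up most of it, whereas Dpt had 8 reads in all 12 libraries together. In such whole tissue, fewer cells of a type and less RNA per cell cannot be told apart.

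Levels of different genes were compared as CPM per kilobase of exon, averaged over the 12 mice. Exon length counted every annotated exon base of a gene once, over all its transcripts. The order was led by Col4a2 with 8.07 CPM per kb and Col4a1 with 6.43, the pair of chains of the common type IV network, with Col25a1 at 6.65 between them. Col25a1 encodes a transmembrane collagen made by neurons. Col11a2 at 5.68, Igf2 at 5.56, Col19a1 at 4.08, Fn1 at 3.68 and Col9a3 at 3.23 CPM per kb followed. The classic fibril chains were far lower, with Col1a1 at 0.645, Col1a2 at 0.465 and Col3a1 at 0.0930 CPM per kb, and Col3a1 ranked 43 of 44. The order of the type I chains depends on the length used. Col1a2, with 12.4 kb of exon, had a mean of 5.78 CPM, and Col1a1, with 6.56 kb, had 4.23 CPM. The 3 highest members per length were thus chains known from vessels and neurons, while Col11a2, a fibrillar chain, ranked 4. Across the 12 mice, the highest over the lowest CPM was 1.34 for Col25a1, 1.39 for Col4a1, 5.99 for Col8a2 and 19.4 for Col8a1, so neighbours in the upper part of this order overlapped in their ranges over mice. The ranges of Col4a2, Col25a1 and Col4a1 overlapped in this way.

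**Figure D1:**
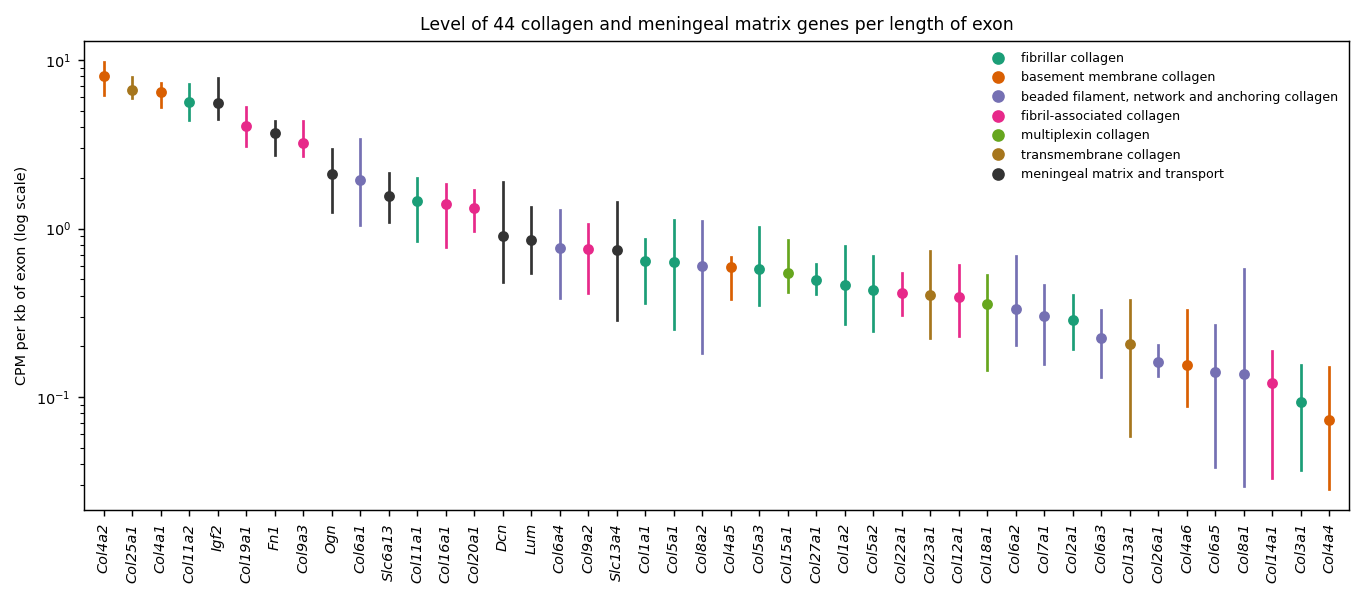
Level of each of the 44 genes in CPM per kb of exon on a log axis, ordered from high to low and coloured by class. Points are means over 12 mice and lines run from the lowest to the highest mouse, with Col4a2 at 8.07 on the left, Col4a4 at 0.0730 on the right and the longest line at Col8a1.

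The members varied more between mice than other genes did. Their median biological coefficient of variation, the spread between mice beyond counting noise, was 18.7%, against 7.39% over all genes tested. Of the 44 members, 35 (79.5%) lay above edgeR's trend of spread against level, as did 32.1% of all genes. The medians above are not matched for level. At the levels of the members, that trend ran from 6.32% for Col25a1 to 20.7% for Col4a4. Col8a1 with 41.3%, Col6a4 with 37.8% and Col6a5 with 36.8% varied most.

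Some mice stood at the ends of the range for many members. PBS control mouse 3 had the lowest value of its group in 30 of 44 members and the lowest of all 12 mice in 18, with a median deviation of -0.35 log2 units from the 12-mouse means. Its members summed to 386 CPM, against 456 to 538 CPM in the other 11 mice. Tau acetate mouse 3 was the highest of 12 in 13 members, among them Col8a1 at 4.50 CPM, Igf2 at 45.0 CPM and Col1a2 at 9.83 CPM. Tau control mouse 2 was the highest of 12 in 8, among them Dcn at 11.01 CPM, Col6a1 at 14.99 CPM and Col6a2 at 5.70 CPM. Because the PBS control mice enter both the comparison of tau with PBS on control chow and that of acetate with control chow in PBS-injected mice, the low values of PBS control mouse 3 bear on both.

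**Figure D2:**
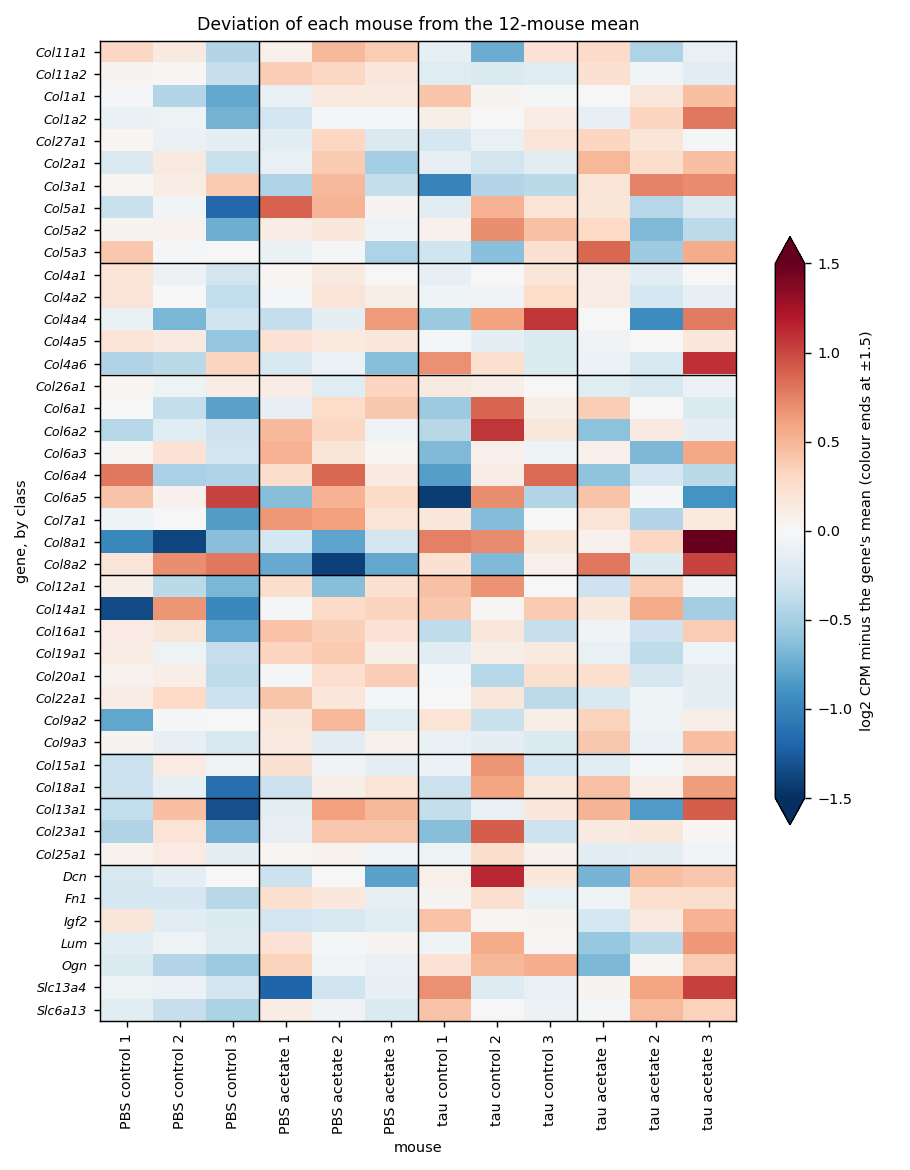
Log2 CPM of each of the 44 genes in each mouse minus the mean of that gene over 12 mice, with genes ordered by class and mice by group. Blue is below and red above the mean. The column of PBS control mouse 3 is mostly blue, with a median of -0.35, and the darkest red cell is Col8a1 in tau acetate mouse 3.

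Among fibrillar collagens, Col1a1 and Col1a2, the 2 chains of type I collagen, were lowest in PBS control mouse 3. Col1a1 stood at 4.08, 3.01 and 2.37 CPM in PBS control, 3.81, 4.59 and 4.54 in PBS acetate, 5.55, 4.25 and 4.04 in tau control and 4.16, 4.66 and 5.72 in tau acetate mice. The tau mice on control chow overlapped the PBS mice by a single animal, PBS control mouse 1, and the log2 fold change was 0.54 ± 0.22 (SE, adjusted p = 0.431). Col1a2 stood at 5.24, 5.33 and 3.39 CPM in PBS control, 4.58, 5.52 and 5.56 in PBS acetate, 5.99, 5.64 and 6.10 in tau control and 5.15, 7.08 and 9.83 in tau acetate mice. It did not overlap between tau and PBS mice on control chow (0.34 ± 0.22, adjusted p = 0.683), and tau acetate mice 2 and 3 lay above all others. On the acetate chow the tau against PBS difference of Col1a2 was 0.48 ± 0.21 (adjusted p = 0.438).

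Col3a1, the chain of type III collagen, was sparsely counted, with 5 to 9 reads per tau control mouse and 9 to 25 in the others. Col3a1 shares exon bases with Gm47302 on the same strand, and reads there cannot be assigned to either. It stood at 0.873, 0.927 and 1.15 CPM in PBS control, 0.581, 1.24 and 0.639 in PBS acetate, 0.361, 0.597 and 0.610 in tau control and 0.991, 1.51 and 1.48 in tau acetate mice. The tau control mice lay below both the PBS control and the tau acetate mice without overlap. The acetate against control difference in tau-injected mice was 1.32 ± 0.40 on the log2 scale, the smallest p of any member in that comparison, and did not pass adjustment (adjusted p = 0.260). Against PBS on control chow the tau difference was -0.90 ± 0.42 (adjusted p = 0.514), opposite in sign to that of Col1a1.

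Type V and type XI chains are the minor chains that nucleate fibrils. Col5a1 stood at 4.02, 4.94 and 2.17 CPM in PBS control, 9.49, 7.27 and 5.24 in PBS acetate, 4.54, 7.36 and 5.87 in tau control and 5.80, 3.75 and 4.37 in tau acetate mice. Every PBS acetate mouse exceeded every PBS control mouse, and Col5a1 rose with acetate in PBS-injected mice by 0.99 ± 0.29 on the log2 scale (adjusted p = 0.0689). In tau-injected mice the same diet gave -0.35 log2 units and overlapping groups, and the difference between both diet effects was -1.34 ± 0.40 (adjusted p = 0.159). Without PBS control mouse 3 the difference in PBS-injected mice was 0.72, with an adjusted p of 0.199. Without PBS acetate mouse 1 or 2 the adjusted p was 0.202 or 0.214. The exons of Col5a1 share bases with 2810430I11Rik and Gm13372 on the other strand, whose reads can be told from its own only if the counts are stranded.

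Col11a2, the most abundant fibrillar chain per length here, stood at 39.7, 38.9 and 30.3 CPM in PBS control, 49.7, 47.7 and 43.3 in PBS acetate, 33.9, 33.3 and 34.0 in tau control and 45.2, 37.5 and 34.7 in tau acetate mice. Acetate mice exceeded control mice without overlap in both injections. The rise passed the test in PBS-injected mice (0.37 ± 0.10, adjusted p = 0.0557), whereas in tau-injected mice the difference was 0.22 log2 units with an unadjusted p of 0.0544. Without PBS control mouse 3 the first of these was 0.25 and its adjusted p 0.203. That call was also lost without PBS acetate mouse 1 or 2 (adjusted p = 0.1635 and 0.2008). Of the remaining fibrillar chains, Col5a2 had group means of 3.49 to 5.41 CPM with tau control highest (0.61 ± 0.26 against PBS control, without overlap, adjusted p = 0.467). Col2a1 means ran from 2.26 to 3.49 CPM with tau acetate highest (0.62 ± 0.24 against tau control, without overlap, adjusted p = 0.365). Col11a1 means ran from 16.1 to 22.6 CPM, those of Col27a1 from 6.07 to 7.19 CPM and those of Col5a3 from 3.28 to 5.02 CPM.

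The 2 chains of the common type IV collagen varied less between mice than the median member (18.7%). Their biological coefficients of variation were 9.07% for Col4a1 and 12.2% for Col4a2. Both lay above edgeR's trend at their level, 6.70% and 6.60%. Col4a1 stood at 54.8, 44.9 and 39.3 CPM in PBS control, 48.8, 52.7 and 47.5 in PBS acetate, 44.1, 48.1 and 54.1 in tau control and 51.5, 42.6 and 47.8 in tau acetate mice. Col4a2 stood at 60.7, 53.1 and 41.2 CPM in PBS control, 52.2, 60.4 and 57.0 in PBS acetate, 50.6, 51.3 and 64.4 in tau control and 57.4, 44.2 and 48.7 in tau acetate mice. All groups overlapped, and the largest of their 4 pairwise log2 differences was -0.17 ± 0.15, for Col4a2 between tau and PBS on the acetate chow. The remaining chains had group means of 3.56 to 4.44 CPM for Col4a5, 0.918 to 1.56 CPM for Col4a6 and 0.523 to 1.05 CPM for Col4a4, and none of these 5 chains passed an unadjusted p of 0.05 in any comparison.

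Col4a1 and Col4a2 lie head to head on chromosome 8 (GRCm38 11198423 to 11312826 on the minus strand and 11312805 to 11449287 on the plus strand) and share a few exon bases at their starts. Their CPM followed each other over the 12 mice more closely than any other of 8 pairs set for comparison (Pearson r = 0.918, permutation p = 4e-05, adjusted p = 0.00032; Spearman rho = 0.867, permutation p = 0.00054). The relation held without PBS control mice 1 and 3 (r = 0.857) and after removal of the group means (r = 0.930). The type I pair, Col1a1 and Col1a2, came next (r = 0.807, permutation p = 0.00298, adjusted p = 0.0119; rho = 0.748, permutation p = 0.00689), with r = 0.758 without PBS control mice 2 and 3 and 0.749 within groups.

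Col6a1 and Col6a2, which share a trimer as well, gave r = 0.550 (permutation p = 0.0643; rho = 0.364, permutation p = 0.247), which fell to 0.0984 without tau control mouse 2 and PBS control mouse 3 and so rested on these mice. No other pair passed an adjusted Pearson p of 0.05 by permutation. Dcn and Lum had r = 0.522 (rho = 0.252), Slc6a13 and Slc13a4 r = 0.547 (rho = 0.448), Igf2 and Slc6a13 r = 0.645 (rho = 0.350), Col1a2 and Dcn r = 0.361 (rho = 0.699) and Col3a1 and Col5a2 r = -0.596 (rho = -0.531). Their permutation p-values for Pearson's r, adjusted over 8 pairs, ran from 0.0626 for Igf2 and Slc6a13 to 0.240 for Col1a2 and Dcn, and the permutation p for rho of the latter pair was 0.0145 (adjusted 0.0386). After removal of the group means, r was 0.590 for Dcn and Lum, 0.386 for Slc6a13 and Slc13a4 and 0.718 for Igf2 and Slc6a13. It was 0.292 for Col1a2 and Dcn, 0.441 for Col6a1 and Col6a2 and -0.184 for Col3a1 and Col5a2. With 12 mice, a pair that failed adjustment is not shown to be unrelated.

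Type VIII collagen, a short-chain network collagen of vessel walls and of Descemet's membrane in the eye, held the member with the smallest p in 3 of 5 comparisons, Col8a2, and the member with the widest range over mice, Col8a1. Col8a2 lies on chromosome 4 (GRCm38 126286793 to 126314330, plus strand) and Col8a1 on chromosome 16 (57624258 to 57754737, minus strand). The sequences just before their starts, 250 to 11 bases upstream of the RefSeq start on the strand of each gene (GRCm38.p6), are shown because the chains of this pair had different profiles over the groups. Capitals mark GGGCGG or its reverse complement CCGCCC, the GC box.

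Col8a1, chr16:57754748-57754987, minus strand: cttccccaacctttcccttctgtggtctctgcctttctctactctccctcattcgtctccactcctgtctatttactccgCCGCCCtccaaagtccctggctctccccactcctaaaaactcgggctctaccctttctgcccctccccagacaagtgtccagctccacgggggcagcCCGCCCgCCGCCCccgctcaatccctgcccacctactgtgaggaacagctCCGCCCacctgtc
Col8a2, chr4:126286544-126286783, plus strand: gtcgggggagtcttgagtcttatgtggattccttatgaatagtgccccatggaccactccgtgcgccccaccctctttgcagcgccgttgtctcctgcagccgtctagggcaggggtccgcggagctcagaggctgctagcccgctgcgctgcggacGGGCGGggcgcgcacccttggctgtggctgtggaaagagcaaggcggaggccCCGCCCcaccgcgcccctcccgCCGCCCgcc

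The Col8a1 stretch had a GC content of 61.7% with 10 CpG sites and 4 GC boxes, and that of Col8a2 69.6% with 22 CpG sites and 3 GC boxes. Over the 250 bases before the start, GC boxes were found on either strand in 25 of 40 windows of the 33 members with a RefSeq promoter (62.5%) and in 32.74% of 32851 windows over 27025 genes. CCAAT occurred in 14 of the 40 windows (35%) against 33.85% of all windows, and TATAAA in 4 (10%) against 12.37%. Some member windows lie in annotated exons, those of Col4a1 and Col4a2 with all 250 bases, and some genes, such as Igf2, have several windows. The windows were not matched for GC content. A match of this kind is a description of the letters and not of binding.

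Col8a2 stood at 2.74, 3.94 and 4.20 CPM in PBS control, 1.36, 0.825 and 1.34 in PBS acetate, 2.81, 1.46 and 2.52 in tau control and 4.21, 2.06 and 4.95 in tau acetate mice, from 16 to 85 reads per library. The PBS acetate mice were the 3 lowest of all 12. Col8a2 fell with acetate in PBS-injected mice by 1.63 ± 0.35 on the log2 scale (adjusted p = 0.0227) and on the acetate chow rose with tau by 1.69 ± 0.34 (adjusted p = 0.0893). These comparisons share the PBS acetate mice. In tau-injected mice acetate gave a difference of 0.73 ± 0.32 in the other direction (adjusted p = 0.411), and the difference between both diet effects, the interaction, was 2.36 ± 0.47 (adjusted p = 0.0466). PBS acetate mouse 2 had the lowest value, and without it the adjusted p was 0.156 for acetate in PBS-injected mice and 0.150 for the interaction. The interaction also missed the threshold without tau acetate mouse 1 (adjusted p = 0.118).

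Markers of the ventricle lining moved in the same comparisons as Col8a2. The 5 ependymal markers (Foxj1, Ccdc153, Tmem212, Dynlrb2 and Cfap126) summed to 30.3 to 32.1 CPM in PBS control, 12.4 to 13.8 in PBS acetate, 11.1 to 20.9 in tau control and 17.3 to 39.1 in tau acetate mice. All 5 of them fell with acetate in PBS-injected mice at an adjusted p below 0.1, with a median log2 difference of -1.30, and 3 of the 5 were called in the interaction. Of 11 choroid plexus markers, 2 fell with acetate in PBS-injected mice, Folr1 (-1.73 ± 0.53) and Otx2 (-1.81 ± 0.59). Over all genes tested, 8.84% were called for acetate in PBS-injected mice and 1.56% in the interaction. The part of these tissues in the result for Col8a2 was not tested.

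Col8a1 stood at 0.349, 0.232 and 0.474 CPM in PBS control, 0.646, 0.413 and 0.639 in PBS acetate, 1.44, 1.39 and 0.916 in tau control and 0.842, 1.03 and 4.50 in tau acetate mice, with 3 to 7 reads per PBS control library and 17 to 70 per tau acetate library. Every tau mouse exceeded every PBS mouse, on both diets. The log2 difference was 1.80 ± 0.70 on control chow (adjusted p = 0.421) and 1.88 ± 0.58 on acetate chow (adjusted p = 0.275), neither of which passed. Without tau acetate mouse 3 the latter was 0.73. That mouse also held the most choroid plexus RNA, with 11 markers summing to 508 CPM and Ttr, the carrier of thyroid hormone made by the choroid plexus, at 399 CPM, against 73.1 to 216 CPM for the sum in the other 11 mice. The part of choroid plexus in the Col8a1 values was not tested.

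**Figure D3:**
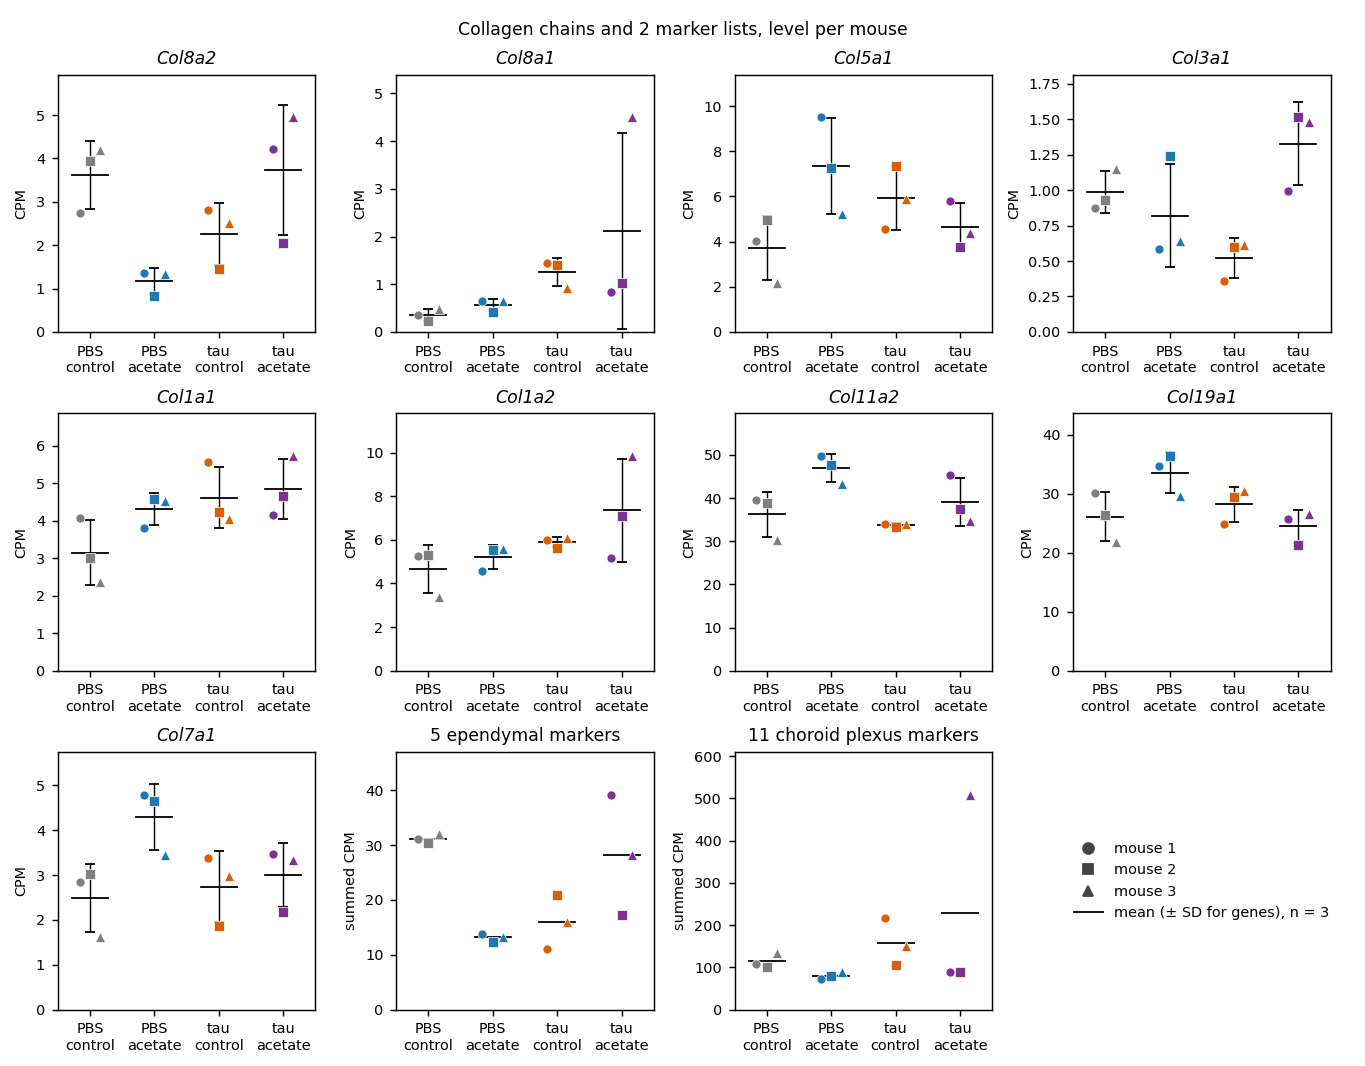
CPM per mouse in the 4 groups for 9 collagen chains, with the summed CPM of 5 ependymal and 11 choroid plexus markers in the last panels. Shapes mark mice 1 to 3 of a group, which were not treated as paired between groups, horizontal lines are means and error bars SD (n = 3, genes only). The PBS acetate mice are the 3 lowest for Col8a2, at 0.825 to 1.36 CPM, and every tau mouse lies above every PBS mouse for Col8a1.

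Of the chains of type VI collagen, the beaded filament, Col6a1 and Col6a2 had their highest values in tau control mouse 2. Col6a1 stood at 8.21, 6.33 and 4.61 CPM in PBS control, 7.49, 9.85 and 10.8 in PBS acetate, 5.55, 14.99 and 8.77 in tau control and 10.6, 8.17 and 7.07 in tau acetate mice. Col6a2 stood at 1.92, 2.32 and 2.10 CPM in PBS control, 3.75, 3.30 and 2.49 in PBS acetate, 1.95, 5.70 and 2.98 in tau control and 1.69, 2.90 and 2.38 in tau acetate mice. PBS acetate mice exceeded PBS control mice without overlap for Col6a2, at 0.60 log2 units and an unadjusted p of 0.0857. The tau against PBS difference on control chow was 0.61 ± 0.34 for Col6a1 (adjusted p = 0.638) and 0.76 ± 0.33 for Col6a2 (adjusted p = 0.470), with overlapping groups. Group means were 2.25 to 3.10 CPM for Col6a3, 4.48 to 8.27 CPM for Col6a4 and 1.06 to 1.79 CPM for Col6a5.

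Col7a1, the chain of the anchoring fibrils of epithelia, stood at 2.85, 3.01 and 1.63 CPM in PBS control, 4.78, 4.64 and 3.45 in PBS acetate, 3.39, 1.86 and 2.98 in tau control and 3.47, 2.18 and 3.34 in tau acetate mice. It rose with acetate in PBS-injected mice by 0.78 ± 0.27 (adjusted p = 0.0987), without overlap, and was 0.55 with an adjusted p of 0.338 without PBS control mouse 3. DESeq2 did not call it (0.78, adjusted p = 0.101). The gene contains the microRNA gene Mir711, whose reads cannot be separated from its own where both are annotated. Group means of Col26a1 ran from 1.15 to 1.41 CPM.

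Fibril-associated collagens decorate fibrils, and Col19a1 is also known as a product of hippocampal interneurons that takes part in synapse formation. Col19a1 stood at 30.0, 26.3 and 21.8 CPM in PBS control, 34.7, 36.3 and 29.6 in PBS acetate, 24.8, 29.4 and 30.4 in tau control and 25.7, 21.3 and 26.5 in tau acetate mice. The PBS acetate mice included the 2 highest, and the third overlapped with PBS control mouse 1. Col19a1 rose with acetate in PBS-injected mice by 0.36 ± 0.12 (adjusted p = 0.0950) and, without PBS control mouse 3, differed by 0.25 with an adjusted p of 0.303. Without PBS acetate mouse 1 or 2 its adjusted p was 0.221 or 0.319. On the acetate chow every tau mouse lay below every PBS mouse (-0.45 ± 0.12, adjusted p = 0.179), and the interaction was -0.56 ± 0.17 (adjusted p = 0.152). DESeq2 called both of these, at adjusted p = 0.0700 and 0.0837.

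Col9a3, a chain of the type IX collagen of cartilage, stood at 12.6, 11.3 and 10.4 CPM in PBS control, 13.5, 10.98 and 12.8 in PBS acetate, 11.5, 11.1 and 10.7 in tau control and 16.3, 11.5 and 16.8 in tau acetate mice. Tau acetate mice 1 and 3 lay well above the rest, and mouse 2 of that group lay just above the highest tau control mouse. The acetate against control difference in tau-injected mice was 0.42 ± 0.14 (adjusted p = 0.276), and Col9a3 was called there without tau acetate mouse 2. It shares exon bases with Tcfl5 on the other strand. Col12a1, with group means of 4.65 to 7.60 CPM and tau control highest, had a tau against PBS difference of 0.70 ± 0.28 on control chow (adjusted p = 0.446). Group means were 8.15 to 11.6 CPM for Col16a1, 6.44 to 7.80 CPM for Col20a1, 3.38 to 4.32 CPM for Col22a1, 1.94 to 2.64 CPM for Col9a2 and 0.628 to 0.982 CPM for Col14a1.

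Multiplexins are basement membrane collagens whose end fragment, in type XVIII, is endostatin. Col18a1 stood at 1.86, 2.16 and 1.02 CPM in PBS control, 1.87, 2.53 and 2.75 in PBS acetate, 1.88, 3.65 and 2.67 in tau control and 3.27, 2.54 and 3.73 in tau acetate mice. PBS control mouse 3 was the lowest, and groups overlapped in the tau against PBS comparison on control chow (0.71 ± 0.31, adjusted p = 0.469). Group means of Col15a1 ran from 3.21 to 3.81 CPM.

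The transmembrane Col25a1, whose product binds amyloid beta in plaques, stood at 88.8, 93.7 and 77.9 CPM in PBS control, 87.8, 89.2 and 83.6 in PBS acetate, 81.1, 103 and 89.7 in tau control and 77.1, 77.7 and 83.2 in tau acetate mice. Tau acetate mice 1 and 2 were the lowest of all 12, and tau control mouse 2 the highest. The acetate difference was -0.20 ± 0.08 in tau-injected mice (adjusted p = 0.365) and 0.00 ± 0.08 in PBS-injected mice, with a test of the difference between them of -0.21 that did not pass. Group means were 1.80 to 2.63 CPM for Col23a1 and 0.716 to 1.15 CPM for Col13a1.

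Of the 7 meningeal genes, all had a positive tau against PBS difference on control chow, none of which passed adjustment. Fn1, fibronectin, which vessels also make, stood at 35.6, 35.7 and 31.9 CPM in PBS control, 50.0, 47.6 and 39.0 in PBS acetate, 43.7, 50.3 and 39.5 in tau control and 40.9, 50.2 and 50.9 in tau acetate mice. The 3 PBS control mice were the 3 lowest of all 12. Fn1 rose with acetate in PBS-injected mice by 0.40 ± 0.11 (adjusted p = 0.0557), and the tau against PBS difference on control chow, which uses the same PBS control mice, was 0.37 ± 0.11 (adjusted p = 0.351). Without PBS control mouse 3, acetate gave 0.35 with an adjusted p of 0.203. Without PBS acetate mouse 1 or 2 the adjusted p for acetate was 0.179 or 0.223. Fn1 shares exon bases with Apol7d on the other strand.

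Ogn, osteoglycin, and Dcn and Lum, decorin and lumican, are small leucine-rich proteoglycans that bind collagen fibrils. Ogn stood at 4.48, 3.78 and 3.52 CPM in PBS control, 6.59, 5.05 and 4.86 in PBS acetate, 6.06, 7.36 and 7.63 in tau control and 3.22, 5.32 and 6.81 in tau acetate mice. It separated PBS control from both PBS acetate and tau control mice without overlap, and the tau against PBS difference on control chow, 0.83 ± 0.23, had the smallest p of the members in that comparison (adjusted p = 0.297). Acetate in tau-injected mice gave -0.47 ± 0.22 (adjusted p = 0.437), with an interaction of -0.95 ± 0.32 (adjusted p = 0.186).

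Dcn stood at 4.19, 4.48 and 4.94 CPM in PBS control, 3.94, 5.00 and 2.81 in PBS acetate, 5.26, 11.01 and 5.57 in tau control and 3.02, 6.84 and 6.62 in tau acetate mice. Lum stood at 1.81, 1.93 and 1.76 CPM in PBS control, 2.39, 2.01 and 2.11 in PBS acetate, 1.95, 3.05 and 2.06 in tau control and 1.34, 1.51 and 3.28 in tau acetate mice. For both genes the tau control mice lay above the PBS control mice without overlap, by 0.69 ± 0.35 for Dcn (adjusted p = 0.584) and 0.37 ± 0.32 for Lum (adjusted p = 0.771), with tau control mouse 2 far above its group.

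Igf2, a growth factor secreted by meninges, choroid plexus and vessels, stood at 35.4, 28.0 and 27.2 CPM in PBS control, 25.7, 26.6 and 27.6 in PBS acetate, 42.3, 31.8 and 32.1 in tau control and 26.1, 34.2 and 45.0 in tau acetate mice. Groups overlapped in each of the 4 pairwise comparisons, and the tau against PBS difference was 0.22 ± 0.19 on control chow (adjusted p = 0.779) and 0.39 ± 0.19 on acetate chow (adjusted p = 0.511). The 2 highest mice, tau control mouse 1 and tau acetate mouse 3, were also the 2 with the highest choroid plexus sums, 216 and 508 CPM. The part of choroid plexus in these values was not tested. Igf2 shares exon bases with Gm49394 on the same strand, and reads there cannot be assigned to either.

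Slc6a13, the GABA transporter of the leptomeninges, stood at 3.96, 3.48 and 3.18 CPM in PBS control, 4.84, 4.28 and 3.83 in PBS acetate, 6.06, 4.44 and 4.20 in tau control and 4.36, 6.23 and 5.72 in tau acetate mice. Tau control lay above PBS control without overlap (0.46 ± 0.20, adjusted p = 0.471). Slc13a4, a sulfate transporter of meninges and choroid plexus, stood at 2.97, 2.93 and 2.57 CPM in PBS control, 1.29, 2.53 and 2.87 in PBS acetate, 5.12, 2.72 and 2.90 in tau control and 3.22, 4.78 and 6.49 in tau acetate mice. On acetate chow every tau mouse exceeded every PBS mouse (1.09 ± 0.31, adjusted p = 0.213, and 0.0997 by DESeq2). Its 2 highest mice were again tau control mouse 1 and tau acetate mouse 3.

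**Figure D4:**
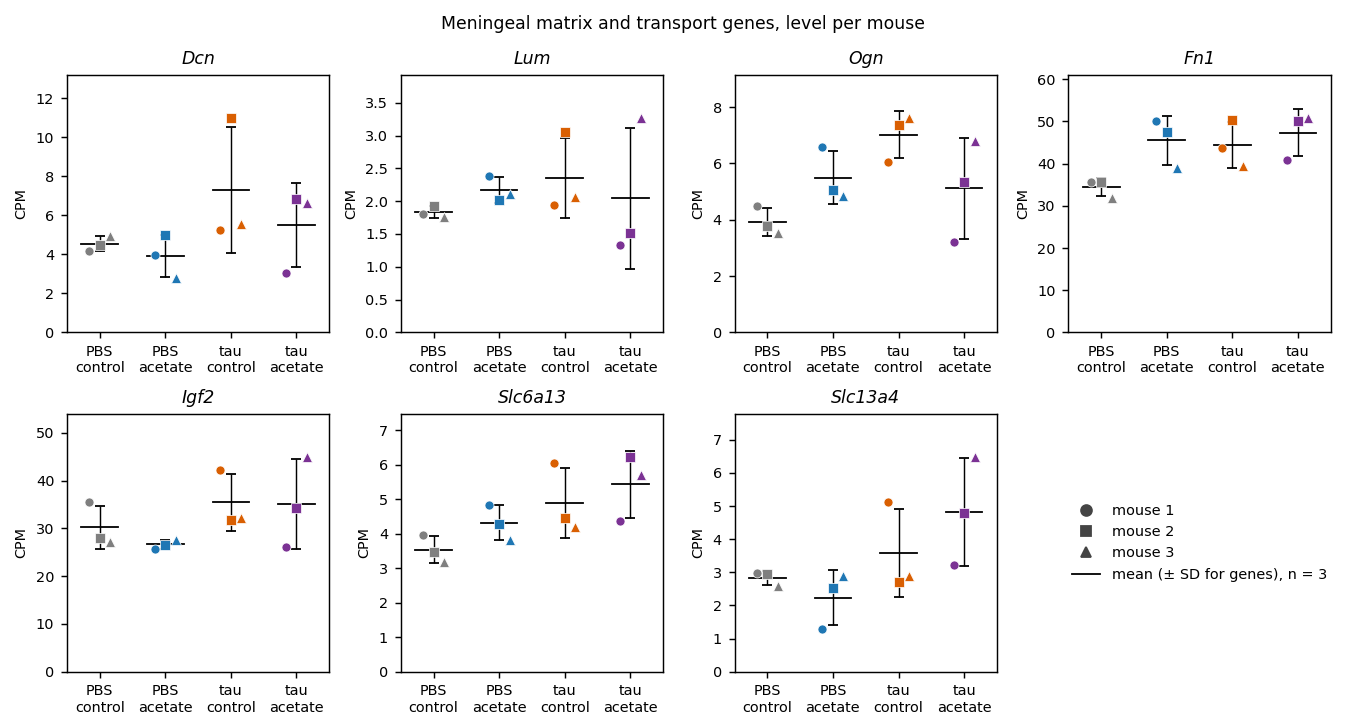
CPM per mouse of the 7 meningeal matrix and transport genes in the 4 groups. Shapes mark mice 1 to 3 of a group, horizontal lines are means and error bars SD (n = 3). The PBS control mice are the 3 lowest for Fn1, at 31.9 to 35.7 CPM, and tau control mouse 2 stands apart for Dcn at 11.01 CPM.

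Whether AD tau seeding alone changed these genes was asked on control chow. Of the 44 members 0 passed an adjusted p of 0.1 (edgeR's quasi-likelihood test over all genes, smallest adjusted p 0.297), against 0.0136% of all genes, that is 2 of 14742. Before adjustment, 10 members (22.7%) were higher at p below 0.05, where 4.81% of all genes were, and 1 (2.27%) was lower, where 4.84% were. The higher ones were Ogn, Fn1, Col8a1, Col1a1, Col12a1, Col5a2, Col18a1, Col6a2, Slc6a13 and Col5a1, and the lower one was Col3a1. DESeq2 called 0 as well, with 12 members at an unadjusted p below 0.05. The log2 difference was above 0 in 32 members, with a median of 0.22 where the median of all genes was near 0, and 9 (20.5%) did not overlap between groups, where 13.5% of all genes did not.

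Markers of other cells moved with this comparison as well, none of them past adjustment. At an unadjusted p below 0.05, 6 of 6 oligodendrocyte markers were lower, with sums of 6869 to 8859 CPM in PBS control and 4556 to 5510 in tau control mice, as were 4 of 5 ependymal markers (30.3 to 32.1 and 11.1 to 20.9 CPM). Of 9 mural markers 5 were higher (195 to 218 and 217 to 263 CPM) and all 9 were above 0, and of 5 CA1 markers 3 were higher (452 to 589 and 606 to 767 CPM). Meningeal fibroblast markers had 1 of 12 higher, with 10 above 0. Of 5 thalamus markers 1 was lower and 0 were above 0, with a median of -1.34 (103 to 296 and 73.9 to 111 CPM). The 296 CPM came from PBS control mouse 2. Of 6 CA3 markers 1 was lower and 1 was above 0, with a median of -0.33 (436 to 529 and 336 to 423 CPM). The part of these cells and regions in the members' differences was not tested.

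Without PBS control mouse 3 only 4 members passed an unadjusted p of 0.05 on control chow, 24 were above 0 and the median was 0.12. Without tau control mouse 2, the mouse with the highest Dcn and Col6a1, 5 passed it, and without PBS control mouse 2, 7 did.

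On the acetate chow, tau raised Col8a2 and no other member at an adjusted p of 0.1. This was 1 of 44 (2.27%) against 0.136% of all genes, and it was lost when any of 8 mice was left out. At an unadjusted p below 0.05, 4 members were higher, Col8a2, Slc13a4, Col8a1 and Col1a2, where 5.5% of all genes were, and 3 were lower, Col19a1, Col11a2 (-0.26 ± 0.10, adjusted p = 0.396) and Col5a1 (-0.65 ± 0.27, adjusted p = 0.437), where 4.83% were. The median log2 difference was -0.08, with 17 members above 0, and 7 members (15.9%) did not overlap, where 16.2% of all genes did not. Here 5 of 5 ependymal, 6 of 11 choroid plexus and 4 of 6 oligodendrocyte markers were higher at an unadjusted p below 0.05, and their part was not tested. On both diets Col8a1 was among the members with higher values in tau mice and no overlap.

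Acetate chow in PBS-injected mice gave the most calls. Col11a2, Fn1, Col5a1, Col19a1 and Col7a1 rose and Col8a2 fell, 6 of 44 members (13.6%) at an adjusted p below 0.1, where 8.84% of all genes passed. The same 6 passed an unadjusted p of 0.05, so that 11.4% of members were higher and 2.27% lower, where 9.96% and 10.8% of all genes were. The log2 difference was above 0 in 36 members with a median of 0.27, and 9 (20.5%) did not overlap between groups, below the 26.3% of all genes. All 8 fibril-associated collagens were above 0, with a median of 0.32. These positive values rest in part on PBS control mouse 3, without which Col8a2 alone was called, 31 members were above 0 and the median was 0.14. Calls over all genes fell as well, from 1303 to 248 of 14928. Without PBS acetate mouse 1 Col8a2 alone was called as well, with 315 of 14920 genes, 34 members above 0 and a median of 0.22. Without PBS acetate mouse 2 none of the 44 and 15 of 14920 genes were called. Col11a2, Fn1, Col5a1, Col19a1 and Col7a1 thus each lost the call when PBS control mouse 3, PBS acetate mouse 1 or PBS acetate mouse 2 was left out.

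Cell and region markers moved with this comparison too. Oligodendrocyte markers summed to 6869 to 8859 CPM in PBS control and 4311 to 5933 in PBS acetate mice, CA1 markers to 452 to 589 and 718 to 946 CPM, CA3 markers to 436 to 529 and 223 to 379 CPM, and markers of the neighbouring thalamus to 103 to 296 and 82.1 to 95.7 CPM, each without overlap. Mural markers summed to 195 to 218 CPM in PBS control and 218 to 235 in PBS acetate mice. Of 9 tested, 8 were above 0 with a median of 0.18, and Pdgfrb (0.34 ± 0.10) and Cspg4 (0.29 ± 0.09) were called. Endothelial markers summed to 204 to 222 and 220 to 225 CPM, with 5 of 8 above 0, a median of 0.13 and Abcb1a (0.30 ± 0.09) called. Of 12 meningeal fibroblast markers tested, 11 were above 0 with a median of 0.24, and 1 was called, Cemip (0.53 ± 0.14). Border macrophage markers stayed at 1.93 to 4.30 CPM in all mice, and of 5 blood markers the 4 globin genes were listed at 0 throughout. The part of these tissues in the members' differences was not tested.

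Acetate chow in tau-injected mice gave no call among the members (smallest adjusted p 0.260), where 0.0611% of all genes were called. DESeq2 called 0 as well. At an unadjusted p below 0.05, 4 members were higher, Col3a1, Col9a3, Col2a1 and Col8a2, where 5.47% of all genes were, and 3 were lower, Col25a1, Col5a2 (-0.62 ± 0.25, adjusted p = 0.397) and Ogn, where 5.41% were. The median was 0.07 with 24 members above 0, and 5 (11.4%) did not overlap, where 14.4% of all genes did not. At an unadjusted p below 0.05, 5 of 6 oligodendrocyte and 3 of 5 ependymal markers were higher as well, and their part was not tested. The sign of the members' median turned without tau control mouse 3 or tau acetate mouse 3.

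**Figure D5:**
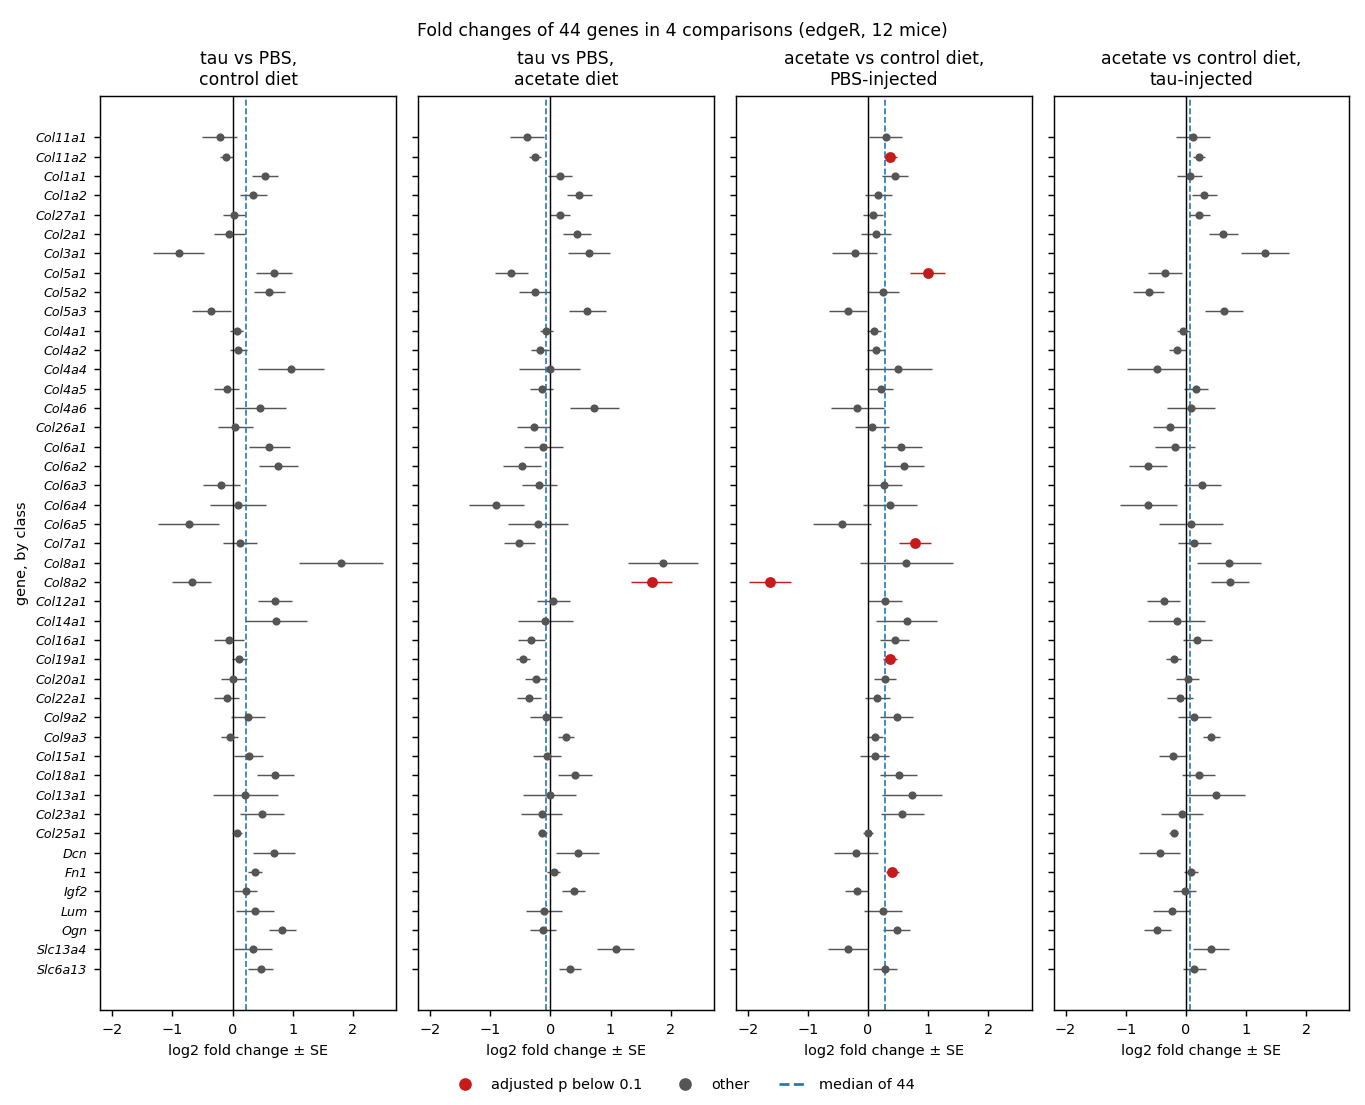
Log2 fold change ± SE of the 44 genes in 4 comparisons from 1 edgeR fit over 12 mice, ordered by class. Red points passed an adjusted p of 0.1, and dashed lines are the medians of the 44, at 0.22, -0.08, 0.27 and 0.07 from left to right. Each tau comparison shares a group of mice with each diet comparison.

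The test of whether the diet effect differed between injections called Col8a2 alone among the members, 1 of 44 (2.27%) where 1.56% of all genes were called. At an unadjusted p below 0.05, Col8a2, Col3a1 (1.54 ± 0.55, adjusted p = 0.227) and Col5a3 (0.97 ± 0.45, adjusted p = 0.376) were above 0, where 6.76% of all genes were. Col19a1, Col5a1, Ogn, Col6a2 (-1.23 ± 0.46, adjusted p = 0.246) and Col5a2 (-0.86 ± 0.36, adjusted p = 0.322) were below 0, where 6.23% of all genes were. The median of the members was -0.25, with 13 above 0.

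Other genes of collagen metabolism were counted in the same way. Of all genes tested, 8.84% were called for acetate in PBS-injected mice and 1.56% in the interaction. Of 26 tested genes of collagen synthesis and crosslinking, 1 rose with acetate in PBS-injected mice, Colgalt2, a collagen galactosyltransferase (0.59 ± 0.18, adjusted p = 0.0644), and 1 was called in the interaction, P3h4 (0.71 ± 0.17, adjusted p = 0.0698). The list's median log2 difference lay between -0.0034 and 0.036 in the 5 comparisons. Of 15 collagen receptors and proteases, Mmp14, a membrane collagenase (-0.45 ± 0.12, adjusted p = 0.0425), and Mmp15 (-0.37 ± 0.09, adjusted p = 0.0389) fell with acetate in PBS-injected mice, and Ddr1, a collagen receptor kinase (0.71 ± 0.13, adjusted p = 0.0466), and Mmp14 (0.65 ± 0.17, adjusted p = 0.0867) were called in the interaction. Ddr1 and Mmp14 are also expressed by the oligodendrocyte lineage, whose markers moved with the same comparison, and the part of those cells was not tested.

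Of 15 laminin and basement membrane genes, Agrn rose with acetate in PBS-injected mice (0.26 ± 0.06, adjusted p = 0.0355) and no other was called in any comparison. Among 19 further fibroblast matrix genes 4 rose with acetate in PBS-injected mice, the growth factor binding protein gene Igfbp4 (0.56 ± 0.09, adjusted p = 0.0146), the tenascin Tnxb (0.55 ± 0.12, adjusted p = 0.0251), elastin, Eln (0.74 ± 0.20, adjusted p = 0.0482), and fibrillin, Fbn1 (0.70 ± 0.20, adjusted p = 0.0741). The median of these 19 was 0.21 there and 0.22 between tau and PBS mice on control chow, where none was called and 16 of 19 were above 0. Both comparisons share the PBS control mice. The share of all genes called for acetate in PBS-injected mice was 8.84%. Calls of the genes in these lists and in those above were not recomputed with a mouse left out. Over all genes, calls in that comparison fell from 1303 to 248 without PBS control mouse 3. They fell to 315 without PBS acetate mouse 1 and to 15 without PBS acetate mouse 2.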

How the data were processed

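Bulk polyA RNA-seq of 12 dorsal hippocampi was used, 3 per group by the sample labels. Raw counts per gene and mouse were deposited by the authors, who used STAR 2.5.2a for alignment (GRCm38) and HTSeq 0.9.1 for counting on exons. The kit is named as directional in the labels and as another version in the methods, so the strand of the counts is not certain, and antisense reads may be included where exons overlap. From these counts, edgeR 4.0.16 (TMM, filterByExpr with a minimum count of 10 and total of 15, robust quasi-likelihood F test, 1 mean per group, 8 residual degrees of freedom) tested 14742 genes in R 4.3.3. Calls were made at a Benjamini-Hochberg adjusted p below 0.1 over these genes. Each SE was derived from the test, as the absolute log2 fold change over the square root of its F statistic. Replicates are separate mice and differed beyond counting noise. Correlations used 100000 permutations. Exon lengths and coordinates are from GENCODE M21. Alternatives were DESeq2 1.42.0, its size factors, no filter, the compared mice alone, a threshold of 0.05, a replicate block and each mouse left out.

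Members and gene lists were chosen with earlier results of these data known. Values per mouse were printed for the 7 named genes, 10 collagen chains picked by role, every member called and the 3 with the smallest p in each comparison, and the other members by group means. From other lists, called genes were named.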

Additional observations from a re-analysis of the deposited data

Results flagged for a closer look

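Col8a2 was marked because its response to acetate differed between the injections by a test of the difference itself, an interaction of 2.36 ± 0.47 on the log2 scale (adjusted p = 0.0466, edgeR over 14742 genes). Its mean was 3.62 CPM in PBS control and 1.17 CPM in PBS acetate mice, against 2.26 CPM in tau control and 3.74 CPM in tau acetate mice (n = 3 each). No test for single mice standing apart was made, since each group held 3 mice.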

How the results depend on the processing

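The 39 pairs of a member and a comparison used here were those with an unadjusted p below 0.05 in the main fit. Over them 694 values were recomputed. Of these, 639 kept their direction and side of the threshold, 44 lost the call, 11 gained one and 0 changed sign. Choosing the pairs by p in these same data made a change of sign unlikely. The main fit called 1 pair for tau on acetate chow, 6 for acetate in PBS-injected mice and 1 in the interaction. Only these pairs could lose a call, and most of the 639 values came from pairs that stayed uncalled. DESeq2 on all 12 mice called 3 members between tau and PBS on acetate chow (Col19a1, Col8a2 and Slc13a4) and 3 in the interaction (Col19a1, Col5a1 and Col8a2), and did not call Col7a1 for acetate in PBS-injected mice. edgeR on the compared mice alone called 0 between tau and PBS on acetate chow, as did a threshold of 0.05, which left 1 call for acetate in PBS-injected mice. With each mouse left out in turn, calls ran from 0 to 0 for tau on control chow, 0 to 1 for tau on acetate chow, 0 to 6 for acetate in PBS-injected mice, 0 to 1 for acetate in tau-injected mice and 0 to 3 for the interaction. Members at an unadjusted p below 0.05, a count added after the data were seen, ran in the same order from 4 to 12, 4 to 14, 5 to 10, 2 to 10 and 6 to 11. Their median log2 difference ran from 0.12 to 0.31, -0.10 to -0.03, 0.14 to 0.32, -0.029 to 0.078 and -0.34 to -0.12. For acetate in tau-injected mice the median turned negative, to -0.0060 without tau control mouse 3 and -0.029 without tau acetate mouse 3. The cause was not tested.

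Replicate numbers gave no clear sign of pairing between the mice. Of 18 same-numbered pairs 2 correlated above 0.1, and 3 of 12 mice correlated best with their own number. Such a check cannot exclude pairing. With the replicate block, 0, 1, 5, 0 and 2 members were called in the 5 comparisons, the 2 in the interaction being Col5a1 and Col8a2, and the call lost for acetate in PBS-injected mice being Col19a1 (adjusted p = 0.119). Depth limited the lowest members, such as Col8a1 and Col3a1, which had under 10 reads in several libraries.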
